A study of Mus musculus with 30 samples.

Results

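Brain cortex and cerebellum were compared in adult mice through 2 arrays of brain cortex and 2 of cerebellum, 4 of the 30 arrays of a panel of 15 tissues. The members were chosen by the sample labels, with earlier results of these data known. All tissues came from untreated males of the C57BL/6 strain. The labels give an age of 28 weeks, and the methods of the study give another. The series description states that the replicates of these tissues were taken from different animals, and the labels do not tie a cortex to a cerebellum of the same animal. Each array was a two-colour oligonucleotide array, with the RNA of the tissue in the Cy3 channel and a common reference in the Cy5 channel. The reference combined RNA pooled from several mouse cell lines with RNA of embryonic stem (ES) cells, and the dyes were never exchanged. A level is given below as log2(Cy3/Cy5) of 1 probe after normalisation within the array. A level of 0 means a ratio to the reference on the general trend of the array. Probes that are dim in both channels also lie near 0, so such a level does not show expression. A difference is the level in cortex minus the level in cerebellum.

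The cerebral cortex derives from the forebrain and is built of layers of glutamatergic projection neurons with interspersed inhibitory interneurons. The cerebellum derives from the hindbrain, and most of its neurons are small granule cells whose output is collected by the large inhibitory Purkinje cells. The position of a neuron along the neural tube is set in the embryo by homeobox and other transcription regulators, some of which remain expressed in the adult region. Both regions share astrocytes, oligodendrocytes, vessels and the general machinery of the synapse. In pieces of whole tissue, fewer cells of a type and less RNA per cell cannot be told apart.

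Of the 25030 probes of the authors' value table, 21026 were bright enough to be tested with limma, which required both arrays of some tissue to show Cy3 well above background. A probe was called different when its Benjamini-Hochberg adjusted p was under 0.05 and its log2 difference was 1 or more in size. The ± of a difference is the standard error of the model, and the ± of a tissue level is the SD of its arrays. The standard error rests on the spread between replicates in all 15 tissues, not in the brain arrays alone. Of the probes tested, 5.46% passed: 672 were higher in cortex (3.20%) and 477 in cerebellum (2.27%), out of 3591 with an unadjusted p under 0.05. With median centring the counts were 568 and 308, a wider gap. They were closer with the signals processed by the scanner software, 508 and 466. In the authors' value table the counts were also closer, at 547 and 510. The balance between the regions thus depended on the processing. The arrays of the regions did not overlap for 1146 of the 1149 called probes, against 58.9% of all probes with a value on each of the 4 arrays. The calls were made on the same arrays, so this was largely fixed by the choice of probes. The median difference was 1.58 for the cortex-higher and -1.52 for the cerebellum-higher probes, and the median over all probes was 0.03. A difference of at least log2 3 was seen for 68 probes in favour of cortex and 62 in favour of cerebellum. The correlation across probes, taken as a description since probes are not replicates, was 0.988 between the cortex arrays, 0.989 between the cerebellum arrays and 0.921 to 0.931 between a cortex and a cerebellum array. The median Cy3 signal of the 4 arrays lay between 146 and 164 scanner units, and 60.8% (cortex replicate 2) to 76.9% of their probes were well above background. Cortex replicate 2 was on another slide, scanned on another day, than the other 3 arrays. Within the slide that held cortex replicate 1 and both cerebellum arrays, all 1147 called probes with a value there kept their direction, and 1073 differed by at least log2 1. These 3 arrays took part in the calls, so the direction was largely fixed by the choice of probes. With the slide as a fixed block 1450 probes were called, of which 1065 were among the 1149.

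Gene symbols were at hand for 24.0% of the tested probes, and 173 of the called probes carried one (111 higher in cortex, 62 in cerebellum). The 10 largest differences in each direction, which reached 8.97 and -8.70, all belonged to probes without a symbol. The genes described below are therefore a sample of those that differ, and many well-known regional markers were not among the probes with a name. Which exon and which strand of a gene a probe lies on was not checked here. The probes that carry 3 of the results below are shown first, because each stands for one kind of pattern: Kcnt2 had its highest level in cortex, Adcy2 differed in both dye channels, and 2310015B20Rik (current symbol Mrln) was higher in cerebellum and higher again in muscle. Each is a designed oligonucleotide of 60 bases, written 5′ to 3′.
Kcnt2: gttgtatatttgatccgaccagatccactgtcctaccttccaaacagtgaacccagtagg
Adcy2: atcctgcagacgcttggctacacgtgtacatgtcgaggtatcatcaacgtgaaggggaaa
2310015B20Rik: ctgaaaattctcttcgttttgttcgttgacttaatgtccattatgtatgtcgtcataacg

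Genes were taken from lists drawn up with earlier results of these data known, and a gene can stand in several lists. The counts of each list stand beside 3.20% of all tested probes higher in cortex and 2.27% in cerebellum. Genes that specify the forebrain or the hindbrain were considered first. The tested members of a list of forebrain regulators, Pou3f3 and Klf7, did not pass and had differences of 0.68 and -0.12. Of 11 tested hindbrain regulators, 4 were higher in cerebellum, and none was higher in cortex. En1, a homeobox gene of the midbrain-hindbrain junction, had a level of -3.25 and -3.11 in cortex, where 1 of 2 arrays was well above background, and of 0.55 and 0.80 in cerebellum. Lhx9, a LIM homeobox gene known from the deep cerebellar nuclei, had a level of 0.58 and -0.61 in cortex and of 2.00 and 2.18 in cerebellum. The groups did not overlap, but the cortex arrays of Lhx9 lay further apart than those of the other 3 genes. Lhx9 differed by -2.10 ± 0.43 (adjusted p = 0.00308), and without cortex replicate 2 by -1.51 (adjusted p = 0.093). Pax3, a paired-box gene of the dorsal neural tube, had a level of -2.78 and -2.55 in cortex and of -0.79 and -0.49 in cerebellum. Its signal in cortex was well above background on 1 of 2 arrays. Its difference of -2.02 ± 0.46 (adjusted p = 0.00698) was no longer called without cortex replicate 1 (-1.91, adjusted p = 0.071) or without cerebellum replicate 2 (-1.88, adjusted p = 0.079). Lmx1a, a LIM homeobox gene of the roof plate and the rhombic lip, had a level of 0.54 and 0.66 in cortex and of 1.78 and 2.29 in cerebellum, a difference of -1.44 ± 0.18 (adjusted p = 2.35e-05). Lmx1a was not called with the processed signals (-1.67, adjusted p = 0.444), in the authors' table (-1.68, adjusted p = 0.313) or by Cy3 alone. Lhx9 was not called in the authors' table either (-2.52, adjusted p = 0.137). The median difference over the 11 genes was -0.55. The 7 that did not pass had differences between -2.49 and 0.05. The lowest of these was Tcfap2b, the gene of the transcription factor AP-2 beta, with a level of 3.25 and 2.01 in cortex and 5.04 and 5.20 in cerebellum (adjusted p = 0.115). Its arrays did not overlap, as was so for 58.9% of all probes. With the 4 brain arrays fitted alone its adjusted p was 0.0064.

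**Figure D1:**
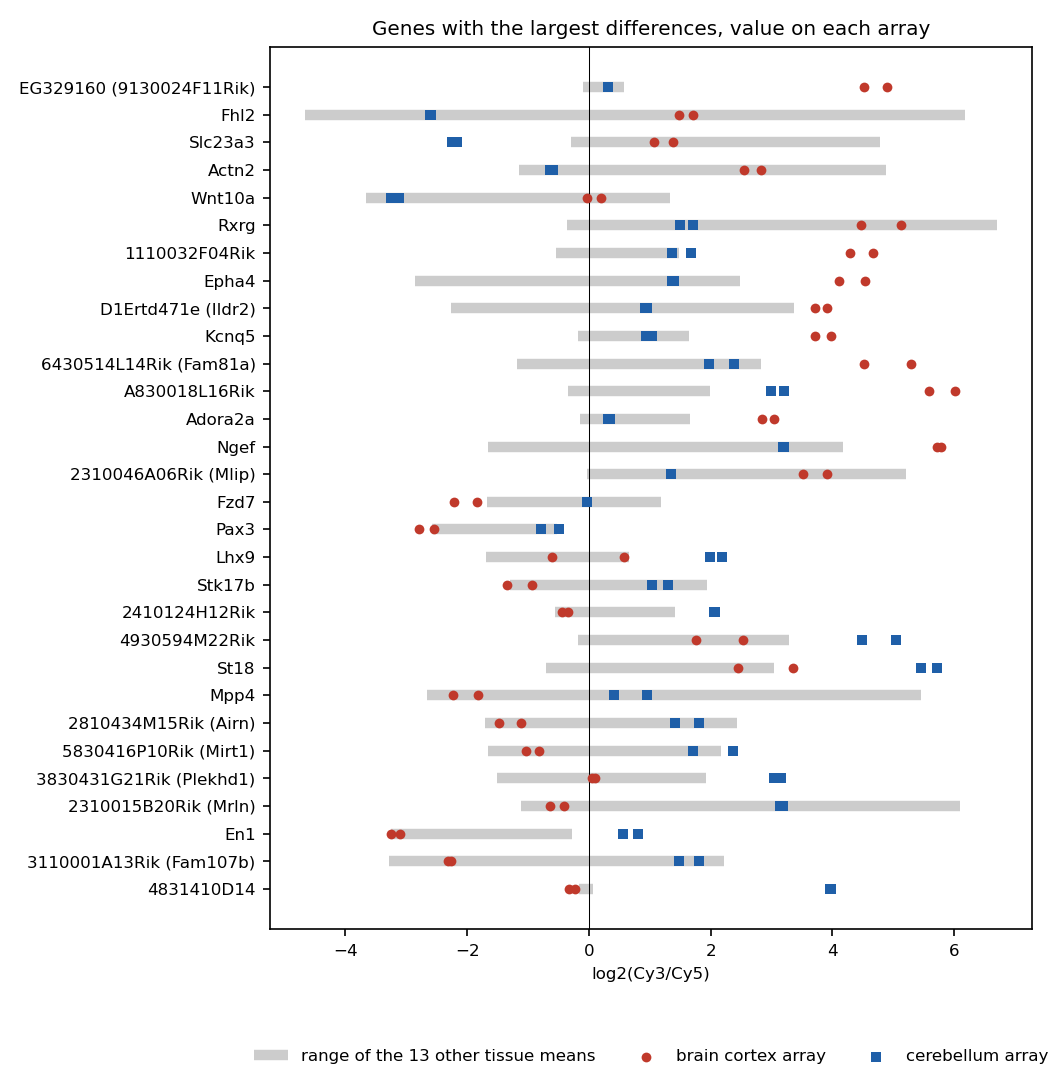
Level, log2(Cy3/Cy5), of the 30 genes with the largest called differences among the probes with a symbol, 15 in each direction. Red circles are the 2 cortex arrays, blue squares the 2 cerebellum arrays, and the grey bar runs from the lowest to the highest mean of the 13 tissues outside the brain. The cortex and cerebellum arrays do not overlap for any of the 30 genes, which the choice of genes required.

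Genes of cortical and of cerebellar neurons followed. Of 7 tested genes known from cortical projection neurons, 2 were higher in cortex, Kcnq5 and Rgs4, and the median difference was 0.71. Kcnq5, a voltage-gated potassium channel that carries the M-current, had a level of 3.98 and 3.71 in cortex and of 1.03 and 0.94 in cerebellum. Rgs4, which speeds the return of G protein alpha subunits to rest, had a level of 5.81 and 5.62 in cortex and 3.88 on each cerebellum array. Every cortex array of both genes lay above every cerebellum array, by 2.86 ± 0.25 for Kcnq5 (adjusted p = 2.25e-07) and by 1.83 ± 0.35 for Rgs4 (adjusted p = 0.00155). Neither was called from the signals processed by the scanner software, where Kcnq5 differed by 1.85 (adjusted p = 0.16) and Rgs4 by 1.30 (adjusted p = 0.13). The 5 genes that did not pass had differences between 0.36 and 1.66. The highest was Creg2, which stayed without a call under 10 of 15 alternative settings. It was called with the slide as a fixed block (1.61, limma, adjusted p = 1.79e-05) and with the 4 brain arrays alone (adjusted p = 0.0003), among others. The summed Cy3 signal of the 7 probes was 25018 and 27314 scanner units in cortex against 5163 and 4829 in cerebellum. Without Rgs4, the brightest, it was 7957 and 8790 against 3316 and 3125.

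Of 6 tested genes known from cerebellar neurons, 2 were higher in cerebellum, Homer3 and Syt2, and none in cortex. Homer3, a postsynaptic scaffold protein abundant in Purkinje cells, had a level of -0.68 and -0.49 in cortex and of 0.90 and 1.13 in cerebellum. It differed by -1.60 ± 0.21 (adjusted p = 3.84e-05). The probe that carries this name may lie on the opposite strand of the gene, which could not be checked here, so its value may not be that of Homer3. Syt2, a calcium sensor of fast transmitter release, had a level of 0.74 and 0.57 in cortex and of 1.77 and 1.71 in cerebellum. Its difference of -1.09 ± 0.11 (adjusted p = 2.43e-06) fell short of log2 1 in size with median centring (-0.88) and was -0.05 with the processed signals (adjusted p = 1). Without cortex replicate 2 its size was also just under log2 1. The remaining 4 genes, Rgs8, Dner, Cntn2 and Pcp4l1, had differences between -0.77 and 0.10 and did not pass. The summed Cy3 signal of the 6 probes was 25751 and 28801 scanner units in cortex against 163127 and 170621 in cerebellum. Rgs8, which did not pass by the ratio and had a difference of 0.37 with median centring, made up most of the sum in cerebellum. Without it the sum was 11506 and 12228 in cortex against 30877 and 32834 in cerebellum.

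The Cy5 channel carried 1 reference RNA throughout, and its signal nevertheless differed between the regions at many bright probes, in the same direction as Cy3. Rgs8, a regulator of G protein signalling known from Purkinje cells, gave the clearest case among the named genes. Its log2 Cy3 level, quantile normalised between arrays, was 13.16 and 13.25 in cortex and 16.48 and 16.54 in cerebellum. Its log2 Cy5 level was 10.04 and 10.29 on the cortex arrays and 13.01 and 12.98 on the cerebellum arrays. The difference was -3.31 in Cy3, or 9.91-fold, and -2.83 in Cy5, and the ratio differed by -0.38 ± 0.15 (adjusted p = 0.152). The channel levels were quantile normalised without the loess step of the ratio, so the ratio's difference is not exactly the Cy3 difference minus the Cy5 difference. Dner, a Notch-related membrane protein of Purkinje cells, differed by -1.95 in Cy3, by -1.28 in Cy5 and by -0.45 in the ratio. Among the probes well above background on all 4 arrays whose Cy3 level differed by at least log2 1, the share of that difference also present in Cy5 had a median of 0.895% where the mean level of the regions was below -1 (137 probes), and of 12.8% where it lay from 1 to 2 (278 probes). The median share was 39.6% where the level lay from 3 to 4 (142 probes) and 31.2% where it was 4 or more (169 probes). The ratio thus gave smaller differences than Cy3 alone at probes far above the reference. The cause was not tested.

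With the log2 Cy3 level tested alone in the same model, 928 probes were called in the same direction by both measures, 221 by the ratio alone and 250 by Cy3 alone, and none in opposite directions. Of the 6 genes of cerebellar neurons, 4 were then higher in cerebellum, Rgs8 (limma, adjusted p = 8.58e-11), Dner (8.12e-06), Homer3 and Syt2, with a median difference of -1.51. Lypd1 was added to the genes of cortical neurons called higher in cortex, with a Cy3 difference of 1.07. Further genes of the lists were called by Cy3 and not by the ratio. Ablim3, Sphkap, Gpr37l1 and Sept4 (current symbol Septin4) had Cy3 differences of -1.60, -1.27, -1.58 and -1.19, and positive ones were seen for Nos1ap with 1.78, Adcy5 with 1.61 and 2900019G14Rik (Slc1a2, the glial glutamate transporter) with 1.28. Rgsl1, Rgs20 and Lmx1a, called by the ratio, were not called by Cy3 alone, with a difference of 0.87 for Rgsl1 and differences just under log2 1 in size for the others. For Fhl2 and En1 the Cy5 difference was 0.01 and -0.12. The Cy3 difference alone is therefore given below for each gene whose Cy5 signal moved by more than log2 1.

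**Figure D2:**
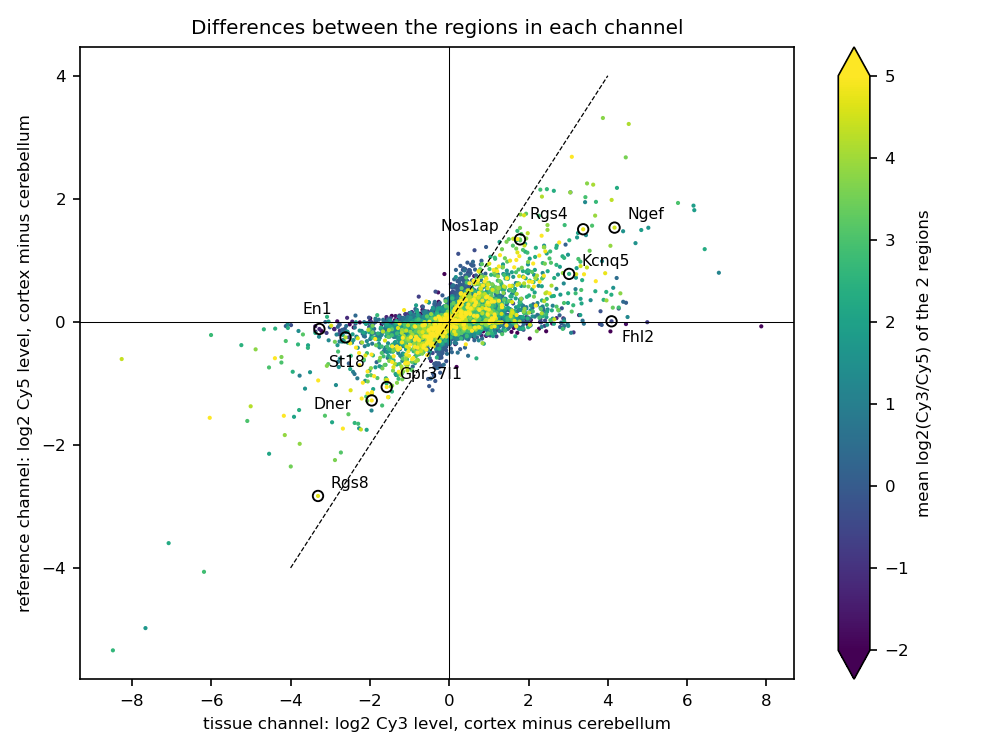
Difference between the regions in the tissue channel (x axis, log2 Cy3 level) and in the reference channel (y axis, log2 Cy5 level), cortex minus cerebellum, for all probes tested. The colour gives the mean log2(Cy3/Cy5) of the regions, the dashed line marks equal differences in both channels, and circles mark named genes. Fhl2 and En1 lie near a Cy5 difference of 0, and Rgs8 lies close to the line at -3.31 and -2.83.

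Genes that mark the cells shared by both regions were considered next. Of 11 genes expressed in neurons at large, Sept5 (Septin5), a septin of the presynaptic terminal, was higher in cortex, and the median difference was 0.11. None of 7 astroglial genes passed, with differences between -0.35 and 0.28. By Cy3 alone 2900019G14Rik was higher in cortex and Gpr37l1 and Sept4 in cerebellum, each with Cy5 moving the same way by 0.77 to 1.08 in size. The summed Cy3 signal of the 7 astroglial probes was 188816 and 205693 scanner units in cortex against 298065 and 328038 in cerebellum. This sum turned with its brightest probe, Gpr37l1, without which it was 112492 and 113007 in cortex against 82940 and 83626 in cerebellum. Of 5 genes of oligodendrocytes, St18, a zinc finger regulator of the Myt1 family, was higher in cerebellum. St18 had a level of 3.35 and 2.45 in cortex and of 5.72 and 5.45 in cerebellum, a difference of -2.68 ± 0.26 (adjusted p = 8.83e-07). With the processed signals St18 was not called (-2.15, adjusted p = 0.082). The other 4 had differences between -0.07 and 0.50, and the summed Cy3 signal of the 5 probes was 1974 and 1589 scanner units in cortex against 5795 and 4632 in cerebellum. St18 carried this gap, and the sum of the other 4 probes was 1108 and 1041 in cortex and 865 and 903 in cerebellum. The part of these cells in the other differences was not tested. None of 11 genes of vessels, blood and immune cells passed (differences between -0.12 and 0.66), nor did any of 7 of choroid plexus and meninges (between -0.34 and 0.42).

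Markers of neighbouring brain parts were checked, because a dissected piece can include them. Of 3 tested striatal markers, 2 were higher in cortex, Rxrg and Adora2a. Rxrg, the retinoid X receptor gamma, had a level of 4.48 and 5.12 in cortex and of 1.49 and 1.71 in cerebellum. Adora2a, an adenosine receptor of striatal output neurons, had a level of 2.85 and 3.05 in cortex and of 0.31 and 0.35 in cerebellum, and its difference was 6.14-fold in the ratio and 7.98-fold in Cy3, with a log2 difference of 1.09 in Cy5. The summed Cy3 signal of the 3 striatal probes was 8428 and 14765 scanner units in cortex against 1686 and 2242 in cerebellum. Of 3 genes used as markers of the hippocampus, Lct passed, which is treated below, and the summed signal was 2981 and 1322 in cortex against 569 and 574 in cerebellum. Without Lct, the brightest, it was 636 and 647 in cortex against 345 and 363 in cerebellum. All 6 probes of these markers were well above background on all 4 arrays. The part of striatal or hippocampal tissue in the cortex-higher genes was not tested. Neither of 2 brainstem markers passed (differences of -0.36 and -0.21), and their summed signal was 1157 and 2249 in cortex and 2713 and 1954 in cerebellum. Fev, with the difference of -0.21, was well above background on 1 of 2 cortex arrays.

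**Figure D3:**
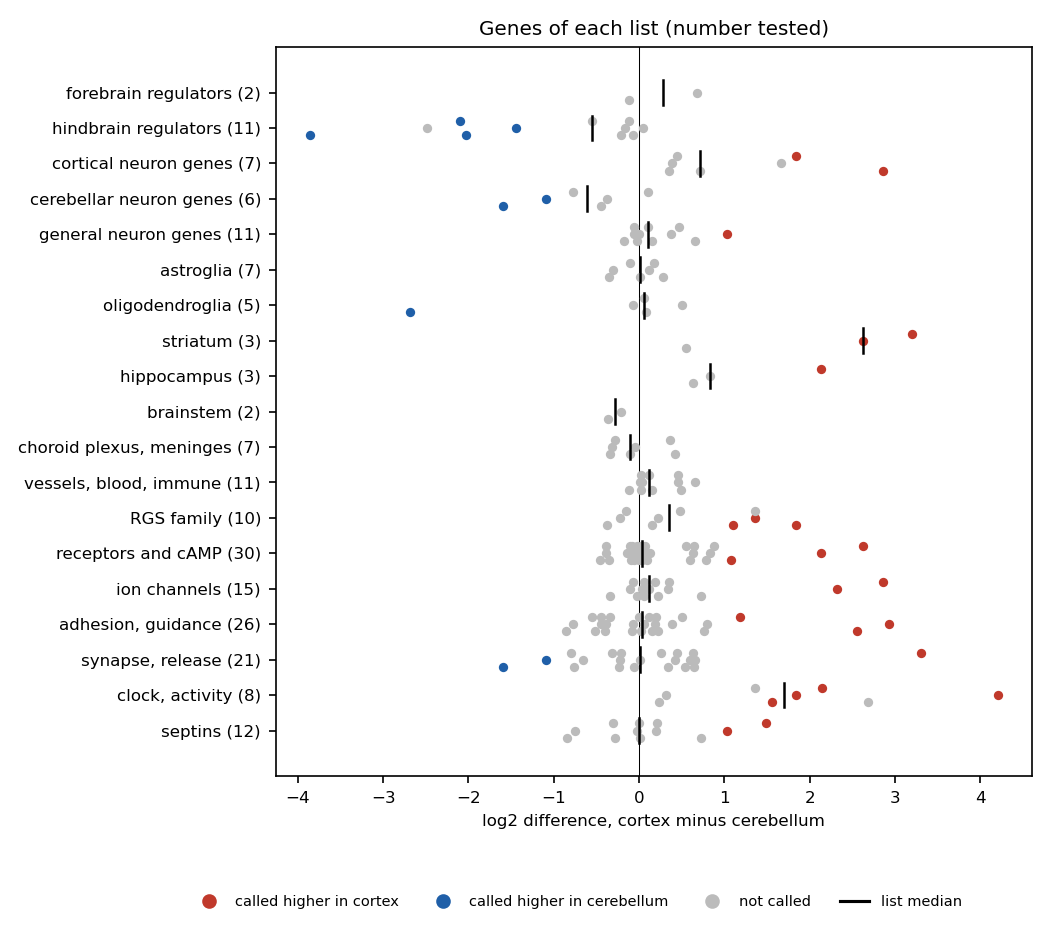
Difference in log2(Cy3/Cy5), cortex minus cerebellum, for the tested genes of 19 lists, with 1 point for a gene, the number tested in brackets and a black bar at the median. Red points were called higher in cortex, blue points higher in cerebellum, and grey points did not pass. The 2 called genes of cortical neurons lie to the right of 0, and the 4 called hindbrain regulators to the left.

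Signalling genes followed, from receptors to the enzymes behind them. Of 30 tested genes of G protein-coupled receptors and the cyclic AMP pathway, 3 were higher in cortex, Adora2a, Adrb1 and Adcy2, none in cerebellum, and the median difference was 0.03. Adrb1, the beta-1 adrenergic receptor, had a level of 5.43 and 5.16 in cortex and of 3.27 and 3.06 in cerebellum. It differed by 2.13 ± 0.16 (adjusted p = 7.73e-08), and by 1.33 with the processed signals, where it was not called (adjusted p = 0.29). Adcy2, an adenylyl cyclase, had a level of 3.80 and 3.43 in cortex and of 2.48 and 2.58 in cerebellum, and differed by 1.08 ± 0.24 (adjusted p = 0.00629). Without cortex replicate 1 it differed by 0.90 (adjusted p = 0.11) and without cerebellum replicate 1 by 1.03 (adjusted p = 0.064). It was 0.70 with the processed signals (adjusted p = 0.369) and in the authors' table (adjusted p = 0.291), and 0.96 with median centring, below the minimum. Its difference was 1.75 in Cy3 and 0.85 in Cy5. Of 10 genes of the RGS family, which shorten G protein signals, Rgs4, Rgs20 and Rgsl1 were higher in cortex, and Rgs8 was called in the opposite direction by Cy3 alone. Rgs20 was 2.14-fold higher (SE 0.17 on the log2 scale, adjusted p = 0.000212). Rgsl1 was not well above background in cerebellum, so no fold is given, and without cortex replicate 1 its difference fell just short of the minimum, at 1.00. For Rgs4 the difference was 3.38 in Cy3 and 1.50 in Cy5, that is 10.4-fold in Cy3 against 3.56-fold in the ratio.

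Of 15 tested ion channel genes, Kcnq5 and Kcnt2 were higher in cortex and none in cerebellum (median difference 0.12). Kcnt2, a sodium-activated potassium channel, had a level of 1.83 and 1.55 in cortex and of -0.48 and -0.78 in cerebellum, a difference of 2.32 ± 0.21 (adjusted p = 3.41e-07). The 13 channels that did not pass had differences between -0.35 and 0.73. Of 26 genes of adhesion and axon guidance, 3 were higher in cortex, Epha4, Ngef and Abi2, and none in cerebellum, with a median of 0.04. Epha4, a receptor for ephrins, had a level of 4.54 and 4.10 in cortex and of 1.37 and 1.41 in cerebellum. Ngef, the guanine nucleotide exchange factor ephexin, which acts downstream of Eph receptors, had a level of 5.78 and 5.72 in cortex and of 3.19 and 3.21 in cerebellum. The receptor and its effector differed between the regions by 2.93 ± 0.35 (adjusted p = 1.01e-05) and by 2.55 ± 0.55 (adjusted p = 0.00455). Ngef was not called with the processed signals (2.41, adjusted p = 0.060) or in the authors' table (adjusted p = 0.054), and in Cy3 alone it differed by 4.17, with 1.53 in Cy5. Abi2, an Abl interactor of the actin-regulating WAVE complex, differed by 1.18 ± 0.25 (adjusted p = 0.0039), and by 1.09 without cerebellum replicate 2 (adjusted p = 0.054). With median centring its adjusted p was 0.064.

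Of 21 genes of the synapse and of transmitter release, 3 passed, Actn2 in favour of cortex and Homer3 and Syt2 in favour of cerebellum. Actn2, an actin cross-linker of the muscle Z-disc that is also found in dendritic spines, had a level of 2.55 and 2.83 in cortex and of -0.59 and -0.65 in cerebellum, a difference of 3.30 ± 0.54 (adjusted p = 0.00036). Of 12 septins, which form filaments at membranes, Sept5 and Sept9 (Septin9) were higher in cortex. Sept9 differed by 1.49 ± 0.30 (adjusted p = 0.00262). Sept5 had a level of 3.50 and 3.40 in cortex and of 2.35 and 2.49 in cerebellum, a difference of 1.03 ± 0.24 (adjusted p = 0.0082). It was short of log2 1 in size without cortex replicate 1 (0.98) and without cerebellum replicate 1 (0.96). The median over the septins was 0.00.

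Of 8 tested genes of the circadian clock or of the response to neuronal activity, 4 were higher in cortex, Fhl2, Ier5, Rgs4 and Npas2, none in cerebellum, and the median difference was 1.69. Over all tested probes 3.20% were higher in cortex. Rgs4 was also counted with the genes of cortical neurons and with the RGS family. Ier5, an immediate early response gene, had a level of 0.71 and 0.94 in cortex and of -1.27 and -1.35 in cerebellum, and differed by 2.14 ± 0.17 (adjusted p = 6.13e-08). Npas2, the forebrain paralogue of Clock, had a level of 2.55 and 2.43 in cortex and of 0.88 and 0.99 in cerebellum. The difference of Npas2, 1.55 ± 0.16 (adjusted p = 1.95e-06), turned its sign with the processed signals (-0.40, adjusted p = 0.94) and in the authors' value table (-0.12, adjusted p = 1). Ptgs2, cyclooxygenase 2, differed by 2.68 and Rgs2 by 1.36 without passing (adjusted p = 0.0984 and 0.241). Their arrays did not overlap either, as was so for 58.9% of all probes. With the 4 brain arrays fitted alone the adjusted p was 8.98e-05 and 0.0027. For Ptgs2 the SD of 2 arrays was 0.11 in cortex, 0.14 in cerebellum and 3.28 in fat. For Rgs2 it was 0.31 in cortex, 0.06 in cerebellum and 2.03 in large intestine.

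The next question was where else these genes were expressed. Each region was compared in the same model with the mean of the 13 tissues outside the brain. Of the 672 cortex-higher probes, 488 (72.6%) were also called higher in cortex than in those tissues, against 15.9% of all tested probes. Of the 477 cerebellum-higher probes, 286 (60.0%) were higher in cerebellum than in those tissues, against 14.4% of all. These contrasts share the arrays of the higher region with the comparison that chose the probes, so nothing is read from the gap to the share of all probes. In 176 of the cortex-higher and 78 of the cerebellum-higher probes the lower region was above the other tissues too. The first count was 104 without cortex replicate 1, 113 without cerebellum replicate 2 and 81 with the processed signals, and the second was 49 without cortex replicate 2 and 130 with Cy3 alone. The commonest place of the lower region was neither above nor below them, with the higher region above, in 283 and 185 probes. The lower region was below the other tissues while the higher region was neither in 107 and 113 probes, and both regions were below them in 23 and 19. These contrasts could not be fitted with the slide as a fixed block. With the slide as a random block, 577 of 834 cortex-higher and 285 of 515 cerebellum-higher probes were also above the other tissues.

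**Figure D4:**
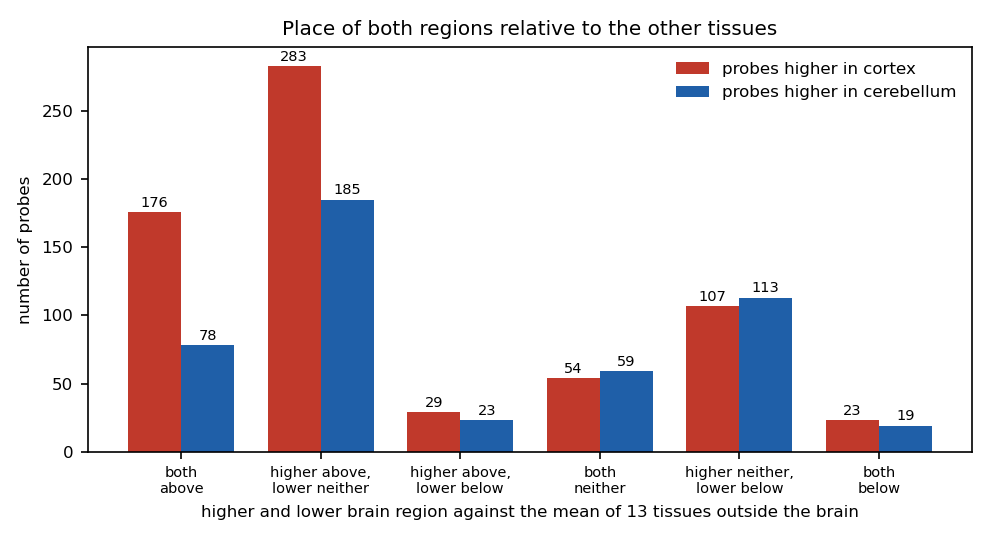
Number of called probes by the place of the higher and the lower brain region relative to the mean of the 13 tissues outside the brain, for probes higher in cortex (red) and higher in cerebellum (blue). The commonest class in both is a higher region above the other tissues and a lower region neither above nor below them, with 283 and 185 probes. The counts with a lower region above the other tissues, 176 and 78, fell to 104 and 49 without 1 array.

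A mean over 13 tissues can hide 1 tissue with a high level. For 320 of the cortex-higher probes (47.6%) and 284 of the cerebellum-higher probes (59.5%) at least 1 tissue outside the brain had a mean level at or above that of the higher brain region, against 82.3% of all tested probes. With median centring the second count was 157, of 308 cerebellum-higher probes. The higher region exceeded every other tissue by at least log2 1 for 220 (32.7%) and 89 (18.7%), against 5.26% of all. The level of the higher region took part in the choice of probes, so the shares of all probes are given as background only. Eyes, which contain the neural retina, were the tissue with the highest level outside the brain for 22.9% of the cortex-higher and 21.8% of the cerebellum-higher probes, against 14.2% of all. Across probes the brain arrays correlated with those of eyes at 0.670 to 0.732 and with no array of another tissue above 0.470.

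Of the 45 called genes described here or shown in the plots, 27 were higher in cortex and 18 in cerebellum, and for 19 a tissue outside the brain reached the level of the higher region. Over all called probes, skeletal muscle was the highest tissue outside the brain for 8.18% of the cortex-higher and 8.18% of the cerebellum-higher probes, against 11.4% of all tested, and heart for 5.65% and 6.71%, against 7.14%. The genes described next are examples and do not stand for the called probes. The tissue with the highest mean is given for each, and for some, Actn2, Slc23a3 and Fzd7 among them, further tissues also lay above the higher region. Fhl2, a LIM domain protein of cardiac muscle, had a level of 1.71 and 1.49 in cortex, -2.61 and -2.59 in cerebellum, and 6.18 ± 0.04 (SD, n = 2) in heart. Actn2 reached 4.88 ± 0.08 in heart, and Rxrg 6.71 ± 0.08 in skeletal muscle. 2310046A06Rik (Mlip), which encodes a lamin-interacting protein of muscle, had a level of 3.91 and 3.52 in cortex, 1.34 and 1.35 in cerebellum and 5.21 ± 0.02 in heart. It differed by 2.37 ± 0.26 in the ratio (adjusted p = 3.28e-06) and by 2.90 in Cy3, with 1.04 in Cy5, and by 0.50 with the processed signals (adjusted p = 0.876). 2310015B20Rik (Mrln), which encodes the muscle micropeptide myoregulin, had a level of -0.64 and -0.41 in cortex and of 3.13 and 3.19 in cerebellum. The cerebellum arrays were both above both cortex arrays, with a difference of -3.69 ± 0.37 (adjusted p = 1.49e-06), and their mean was below that of skeletal muscle (6.10 ± 0.19), bone (5.79 ± 0.34), skin (4.25 ± 0.84) and eyes (3.27 ± 0.18). In cerebellum 2310015B20Rik was called higher than the mean of the 13 tissues, and in cortex lower.

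Further cases were seen on the cortex side. Wnt10a, a secreted Wnt ligand, had a level of -0.03 and 0.20 in cortex, -3.25 and -3.13 in cerebellum and 1.33 ± 0.24 in skin. Slc23a3, a member of the nucleobase and ascorbate transporter family, was not well above background in cerebellum, so no fold is given. Its level was 1.23 ± 0.23 in cortex and 4.78 ± 0.04 in stomach. Adrb1 was at 5.96 ± 0.11 in lung, and Adcy2 at 3.68 ± 0.13 in skeletal muscle, near its 3.61 ± 0.26 in cortex. Lct, the lactase of the intestinal brush border, had a level of 5.04 ± 0.61 in small intestine and of 3.82 and 2.36 on the cortex arrays, against 1.00 and 0.91 in cerebellum. The cortex arrays of Lct were further apart than those of most genes named here, and the difference of 2.14 ± 0.48 (adjusted p = 0.00661) was not called without cortex replicate 1 (1.40, adjusted p = 0.18) or without cerebellum replicate 2 (2.09, adjusted p = 0.058).

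On the cerebellum side, Mpp4, a scaffold protein of photoreceptor terminals, had a level of -2.23 and -1.82 in cortex, 0.95 and 0.42 in cerebellum and 5.45 ± 0.32 in eyes. Lmx1a was also higher in eyes (2.95 ± 0.18) than in cerebellum (2.04 ± 0.36), and Pax3 in skeletal muscle (-0.53 ± 0.28) lay within the spread of cerebellum (-0.64 ± 0.21). En1, which is not one of the 19, was highest in cerebellum (0.68 ± 0.18), followed by skeletal muscle at -0.28 ± 1.77, whose 2 arrays were far apart, and skin at -0.55 ± 0.02. Fzd7, a receptor for Wnt proteins, had a level of -2.22 and -1.84 in cortex and of -0.02 on each cerebellum array. Fzd7 was highest in skeletal muscle (1.19 ± 0.02). Stk17b, a serine/threonine kinase, had a level of -1.35 and -0.94 in cortex, 1.30 and 1.04 in cerebellum and 1.94 ± 0.16 in small intestine. Its difference of -2.31 ± 0.55 (adjusted p = 0.00995) lost its call without cortex replicate 1 (-2.11, adjusted p = 0.10), cerebellum replicate 1 (-2.19, adjusted p = 0.09) or cerebellum replicate 2 (-2.44, adjusted p = 0.051), and with median centring (-2.04, adjusted p = 0.068). The noncoding RNAs 2810434M15Rik (Airn) and 5830416P10Rik (Mirt1) differed by -2.90 ± 0.26 and -2.96 ± 0.41. They were highest outside the brain in kidney (2.43 ± 0.21) and in bone (2.17 ± 0.62).

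Other genes had their highest mean of the 15 tissues in 1 brain region. EG329160 (9130024F11Rik) had a level of 4.89 and 4.51 in cortex, and its mean in the other 14 tissues lay between -0.10 and 0.58. The probe of the clone 4831410D14 had a level of 3.98 and 3.95 in cerebellum and at most 0.06 ± 0.19 in any other tissue. It was not well above background in cortex. Kcnt2 was at most 0.36 ± 0.16 outside the brain, in heart, against 1.69 ± 0.20 in cortex, and Kcnq5 at most 1.64 ± 0.16, in skeletal muscle, against 3.85 ± 0.20. Syt2 was at most 0.23 ± 0.10 outside the brain, in large intestine, against 1.74 ± 0.04 in cerebellum. Lhx9, with 2.09 ± 0.13 in cerebellum, was next highest in eyes (0.66 ± 0.36). St18 (5.58 ± 0.19 in cerebellum) had nearly the same level in eyes (3.04 ± 0.04) and cortex (2.90 ± 0.64), and A830018L16Rik was high in cortex (5.80 ± 0.31), lower in cerebellum (3.10 ± 0.16) and at most 1.99 ± 0.33 elsewhere, in lung. 2410124H12Rik had a level of 2.06 and 2.07 in cerebellum, was not well above background in cortex, and was at 1.42 in eyes. 3830431G21Rik (Plekhd1), with a level of 0.06 and 0.10 in cortex and of 3.04 and 3.15 in cerebellum, differed by -3.01 in the ratio and by -3.64 in Cy3, with -1.09 in Cy5. Its level was 1.92 ± 0.36 in eyes and 1.78 ± 0.09 in lung.

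**Figure D5:**
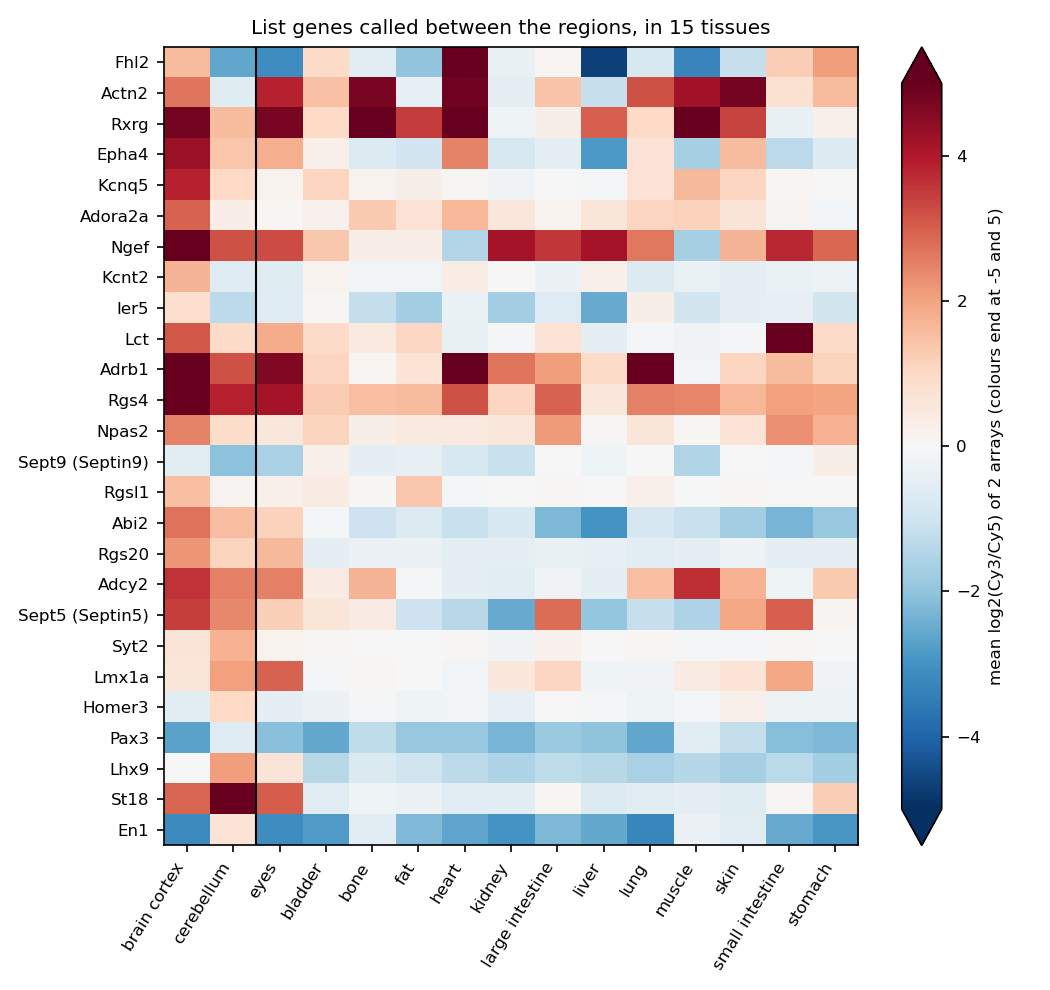
Mean level, log2(Cy3/Cy5) of 2 arrays, of the list genes called between the regions (rows) in the 15 tissues (columns, brain left of the line). Colours run from blue (-5 or lower) to red (5 or higher). Fhl2, Actn2 and Rxrg are deepest red in heart, muscle or bone, and Kcnt2, Homer3 and Syt2 are pale outside the brain.

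In all, 171 of 473 genes on the lists had a tested probe, and 19 were called higher in cortex and 7 in cerebellum, 15.2% of them, against 3.43% of all tested probes with a symbol and 5.46% of all tested probes. The lists were drawn up with earlier results of these data known, so nothing is read from that share. Of the 45 genes called, 25 were called in the same direction under each of 15 alternative settings, and 44 kept their direction under all of them, Npas2 being the exception. The settings reuse the arrays on which these genes were called, so the direction was largely fixed by the choice of genes. The alternative that ended most calls was that of the processed signals, where 15 of the 45 genes kept their direction and did not pass: Kcnq5, 6430514L14Rik, 2310046A06Rik, Ngef, Lct, Adrb1, Rgs4, Abi2, Adcy2, Sept5, Syt2, Lmx1a, Lhx9, St18 and 3830431G21Rik. The values of the authors' table left 13 of the 45 without a call and in the same direction, namely Kcnq5, Ngef, 2310046A06Rik, 3830431G21Rik, Lhx9, Lmx1a, Syt2, Rgs4, Sept5, Lct, Adrb1, Adcy2 and Abi2. With median centring Stk17b, Syt2, Adcy2 and Abi2 lost their calls.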

How the data were processed

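The authors extracted the arrays with Agilent Feature Extraction 9.5.1.1 (per the file headers), and the deposited spot files hold mean and background intensity of both channels. The deposited value table, on a log10 scale, served for the choice of probes and as an alternative. At 11822 bright probes it was nearly the processed Cy3 signal minus the deviation of the processed Cy5 signal (R squared 0.9999). It and the processed signals are therefore not separate alternatives at such probes. Mean signals were corrected by normexp with an offset of 50 and normalised by loess within arrays, control and outlier spots were left out, and spots of a probe were averaged as log2(Cy3/Cy5). limma 3.58.1 in R 4.3.3 was fitted with 1 coefficient for each of 15 tissues over 30 arrays, which share 1 estimate of the spread, and tests were two-sided. Cy3 and Cy5 levels on their own were quantile normalised for each channel without loess, and summed Cy3 signals were taken after loess and quantile normalisation of the mean intensity. With 2 arrays a region, the number of arrays limits the precision. No spot was saturated (0 spots).

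Symbols came from the probe lists in the supplement of the study, and current symbols from the RefSeq gene table. No build is named in the files, so no positions are given. The named genes are the 15 symbols with the largest called difference each way, without overlap between the regions, and the genes of the lists. Where a symbol had several probes, the brightest was used. The members and lists were chosen with earlier results of these data known. The comparison of the Cy3 and Cy5 channels, the genes called by Cy3 alone and the scan day as a block were added after the data had been seen. One item of the lists is not reported here, and its probe was kept in the fit without a name.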

Additional observations from a re-analysis of the deposited data

Results flagged for a closer look

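The array also carries 16976 probes outside the authors' value table, which were not used in the comparison. Of these, 13622 passed the same filter on dim probes. In the same model 543 of them were called different between cortex and cerebellum (3.99%), 311 higher in cortex and 232 higher in cerebellum. They were singled out because they are a signal in data that the report does not use, and they are not named here.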

How the results depend on the processing

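Across the alternatives the number of called probes lay between 859 and 1450 at the minimum of log2 1, and was 1834 without a minimum. It was 974 with the processed signals, 876 with median centring, 1178 with Cy3 alone, 1057 in the authors' table, 1429 with the 4 brain arrays alone, 1349 with the slide as a random block and 1320 with the scan day as a block. Of the 1149 calls of the main fit, 714 were kept with the processed signals and 757 in the authors' table. Median centring kept 850, Cy3 alone 928 and the 4 brain arrays alone 1130. Without 1 of the 4 arrays it lay between 859 and 917. With the replicate number as a block, 1162 probes were called (677 and 485), and no named gene changed its call. Deviations of same-numbered arrays correlated at 0.218, over 2 pairs only, so the numbers were not taken to pair the animals.

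Median centring moved the median difference of all probes from 0.03 to 0.10 and lowered the cerebellum-higher count to 308, of which 157 had a tissue outside the brain at or above cerebellum. With the processed signals 319 cortex-higher probes were also above the 13 tissues. The place of the lower region moved more. Cerebellum was above the 13 tissues in 81 cortex-higher probes with the processed signals, in 104 in the authors' table and in 104 to 154 without 1 array. It was below them in 89 with median centring, in 98 with Cy3 alone and in 101 to 118 without 1 array. Cortex was above them in 51 cerebellum-higher probes with median centring, in 130 with Cy3 alone and in 49 to 69 without 1 array. It was below them in 58 with median centring and in 102 to 112 without 1 array. The causes were not tested.

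Among genes, Npas2 reversed to -0.40 with the processed signals and to -0.12 in the authors' table. Of uncalled genes, Rgs8 (0.37), Gpr37l1 (0.16) and Sept4 (0.032) turned positive with median centring, and Sphkap was 0.20 with the processed signals and in the authors' table. Named genes also called by Cy3 alone are given in the report. With 2 arrays a region, a missed call does not show equal levels.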
